A study of Drosophila melanogaster with 6 samples.

Results

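The genes described here encode the ligands, receptor and regulators of the JAK/STAT pathway of Drosophila melanogaster. They were chosen as a list of 10 genes: the ligands upd1, upd2 and upd3, the receptor gene dome, the related gene et, the kinase gene hop, the transcription factor gene Stat92E, the regulators Socs36E and Ptp61F, and chinmo, a gene known to act downstream. A probe set was taken for a gene when that gene was its only symbol in the array annotation, and the brightest such probe set stood for the gene. This gave 7 of the 10 genes, measured by 10 probe sets, among 11982 genes named in this way on the array. No probe set was used for upd3, hop and Socs36E, so no level of these genes is given.

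In this pathway a secreted ligand of the Unpaired family binds the receptor Domeless, the kinase Hopscotch is activated, and the transcription factor Stat92E enters the nucleus and switches on target genes, among them feedback inhibitors. In fly larvae the pathway is best known in blood cells: overactive Hopscotch makes hemocytes overproliferate and turn into lamellocytes, the large flat cells that wrap parasite eggs. Wasp parasitism induces Unpaired ligands in circulating hemocytes, which act on other tissues such as muscle.

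Hemocytes were taken from the circulation of wandering larvae in their last instar, giving 3 control and 3 Idh-R195H samples, each on 1 array. Control larvae carried hml-Gal4 and UAS-2xEGFP, and Idh-R195H larvae carried these and UAS-Idh-R195H in addition, so the driver and the green fluorescent reporter were common to all samples and the controls had no UAS transgene other than the reporter. The hml driver uses regulatory sequence of Hemolectin, a gene of larval hemocytes, and the transgene encodes the fly counterpart of the cancer-associated human IDH1-R132H enzyme. Every sample pooled the hemocytes of 400 larvae kept at 29 °C until day 7, and the comparison asked which genes and pathways differ when hemocytes express the mutant enzyme.

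The values were linear probe set intensities. Precision was limited by having 3 arrays a group. The probe set of Idh was higher on all Idh-R195H arrays (9360, 9490.4 and 11051) than on all control arrays (3805, 4006 and 4293), as the labels imply. Defining hemocyte markers such as Hml, Pxn and He were bright in both groups, and the summed intensity of 12 hemocyte markers was 108321 to 178873 on control and 116787 to 120579 on Idh-R195H arrays. None of the 12 passed the test in limma, against 3.11% of all probe sets tested. An unadjusted p below 0.05 was found for 3, against 20.2% of all probe sets tested. The groups did not overlap for 4 of the 12, against 28.8% of all probe sets tested. These were crq, Pxn and eater, which were lower (log2 fold changes of -1.62, -0.93 and -0.70), and Sr-CI, which was higher (1.22). Of 14 lamellocyte markers 13 were measured and 11 called higher, against 1.9% of all probe sets tested. The lamellocyte markers summed to 13847 to 14686 on control and 139803 to 152442 on Idh-R195H arrays. Salivary gland markers (8 of 8) summed to 23211, 221595 and 229963 on control replicates 1, 2 and 3 and to 1030.5 to 4971 on Idh-R195H arrays, and fat body markers (5 of 8) to 44549.9 to 123219 on control and 6458 to 56112 on Idh-R195H arrays. Midgut markers (6 of 9) summed to 679.9 to 25621 and 257 to 562. Crystal cell markers (5 of 5) summed to 64125 to 66169 on control and 27221 to 42518 on Idh-R195H arrays, and fok among them fell (-2.04). Niche and progenitor markers (7 of 7) summed to 8053 to 15549 and 12277 to 14860 (overlapping), with Pvf2 and kn called higher (3.66 and 1.12). No marker was listed at 0. The ratio of 3' to 5' signal for Act5C, a measure of how complete the labelled RNA is, was 3.72 to 6.17 on control and 2.13 to 2.39 on Idh-R195H arrays. The part of these differences in the results below was not tested except where a value is given. Of 18769 probe sets tested with limma, 356 (1.9%) were higher and 228 (1.21%) lower in Idh-R195H at an adjusted p below 0.05. Centring arrays on their medians gave 318 and 111, centring on the hemocyte markers 438 and 126, and scaling on added hybridisation controls 6373 and 175.

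Of the 7 measured pathway genes, upd1 and Ptp61F rose in Idh-R195H hemocytes, none fell, and upd2, dome, et, Stat92E and chinmo did not pass the test. Over all probe sets tested, 3.11% were called in either direction, 1.9% higher and 1.21% lower. The 2 of 7 is above that share, but the genes were listed with results of these arrays in view. The share depends on brightness: in a fit of probe sets with a mean intensity of at least 100, 1297 of 9383 were called. In that fit 2 of the 5 pathway genes that remained were called, Ptp61F and chinmo. The median log2 fold change of the 7 genes was 0.36, against -0.11 over all probe sets tested. The arrays of the groups did not overlap for upd1, upd2, Ptp61F and chinmo, which is 4 of 7, against 28.8% of all probe sets tested. At an unadjusted p below 0.05 there were 3 genes (upd1, Ptp61F and chinmo), against 20.2% of all probe sets. In these bulk samples, more cells of a type and more RNA per cell cannot be told apart, nor can fewer cells and less RNA per cell.

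**Figure D1:**
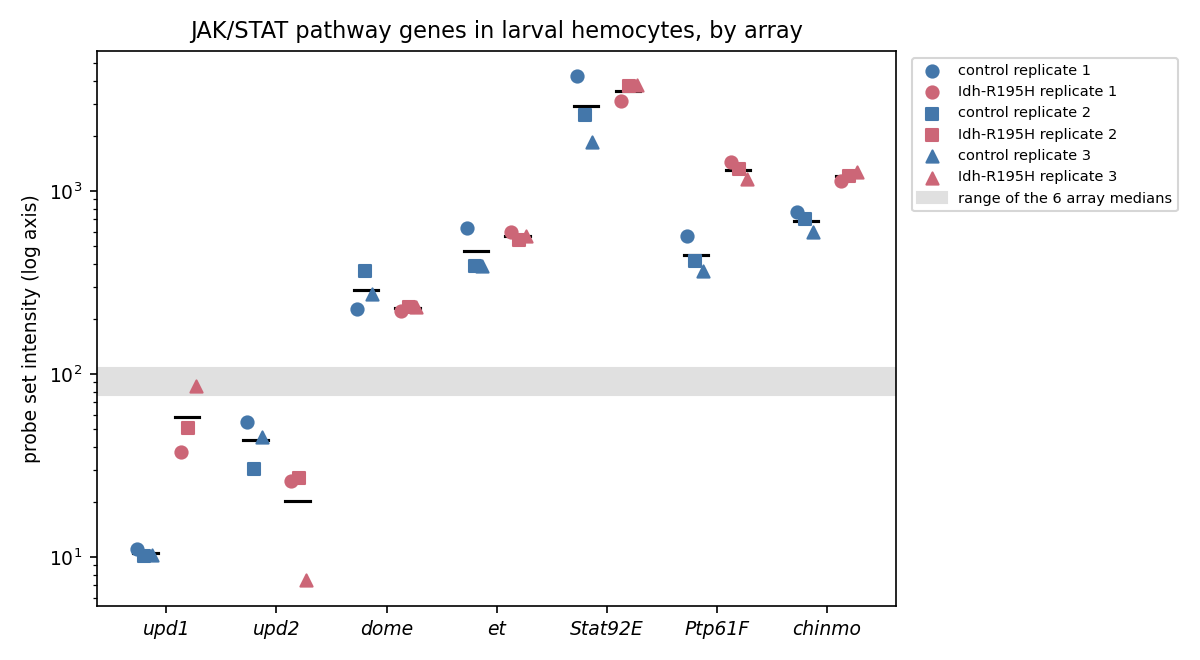
Probe set intensity (log axis) of the 7 measured JAK/STAT genes on each array, with control in blue, Idh-R195H in red, marker shape for the replicate number, black bars for group means and a grey band for the range of array medians. The groups are apart for upd1, upd2, Ptp61F and chinmo and overlap for dome, et and Stat92E, and heights of different genes are not comparable because each is read by its own probes.

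Among the ligands, upd1 was at intensities of 11.1, 10.2 and 10.2 on control replicates 1, 2 and 3 and of 37.5, 50.5 and 85.8 on Idh-R195H replicates 1, 2 and 3. All Idh-R195H arrays lay above all controls, and the controls lay within 1 unit of each other. Upd1 (Outstretched, CG5993, chromosome X) is a secreted ligand of Domeless best known from the embryo, the eye and the stem cell niches. Group means were 10.5 ± 0.526 and 57.9 ± 25.0 (SD, n = 3 each), and the log2 fold change was 2.27 ± 0.34 (SE), a 4.84-fold rise with a 95% interval of 2.72 to 8.61 and an adjusted p of 0.0312 in limma. The transcript was dim throughout: the array medians were 76.6 to 107, and upd1 was above its array's median only on Idh-R195H replicate 3, at 85.8 against 83.7. Fold changes were computed on log2(value + 1), and with a constant of 16 in place of 1 the log2 fold change of this dim gene was 1.43 (adjusted p = 0.0362).

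The call for upd1 was lost without any 1 of the 6 arrays. Leaving out control replicate 1, 2 or 3 gave an adjusted p in limma of 0.0511, 0.113 or 0.0804. Leaving out Idh-R195H replicate 1, 2 or 3 gave 0.0714, 0.126 or 0.0745, while the log2 fold change stayed between 1.95 and 2.54. Over the Idh-R195H arrays the order of upd1 was also the order of the fat body sums, 6458, 19310 and 56112 on replicates 1, 2 and 3. On the control arrays the fat body sums were 44549.9 to 123219 and upd1 was at 10.2 to 11.1. The part of fat body RNA in the upd1 values was not tested.

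The ligand gene upd2 (CG5988, chromosome X), known for its role in the fat body's nutrient signal and for its induction in hemocytes by wasps, was at 54.7, 30.1 and 45.2 in control and at 25.9, 27.0 and 7.45 in Idh-R195H hemocytes. All Idh-R195H arrays lay below all controls, with Idh-R195H replicate 3 far below the rest. Without that array the log2 fold change was -0.65 (adjusted p = 0.460 in limma). With all arrays it was -1.22 ± 0.54 (SE, adjusted p = 0.286 in limma), and the 95% interval, from -2.55 to 0.12, included no change. Every one of these values was below the median of its array. The ligands can be set against each other within an array, which largely removes the array's scaling. The removal is not complete for such dim values, because 1 was added to each before taking logs. The log2 ratio of upd1 over upd2 was -2.20, -1.48 and -2.04 in control and 0.52, 0.88 and 3.36 in Idh-R195H hemocytes. The groups did not overlap, and the difference in means was 3.49. In a two-sided exact permutation test p was 0.1, the smallest that 3 arrays against 3 allow, and 0.15 after Benjamini-Hochberg adjustment over the 6 such ratios computed. With upd1 wholly above and upd2 wholly below control, the separation of this ratio and its p were fixed in advance. The ratio is therefore no evidence beyond the values of the ligands themselves.

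The receptor gene dome (CG14226, chromosome X) encodes Domeless, the single signalling receptor of the Unpaired ligands, which resembles receptors of vertebrate interleukins. Its intensity was 228, 364 and 274 in control and 222, 231 and 233 in Idh-R195H hemocytes. The groups overlapped, and the Idh-R195H arrays lay closer together than the controls. Means were 289 ± 69.4 and 229 ± 5.91 (SD, n = 3 each). The log2 fold change was -0.31 ± 0.24 (SE, adjusted p = 0.556 in limma), with a 95% interval of -0.90 to 0.29, so a fall to 0.534 times and a rise to 1.22 times the control level both lie within it. With scaling on the hybridisation controls the sign turned (0.66, adjusted p = 0.104), and it was 0.0069 with control replicate 1 as the only control. Without control replicate 1 it was -0.46 and without control replicate 2 it was -0.13 (adjusted p = 0.221 and 0.862).

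The gene et (eye transformer, also called latran, CG14225) encodes a shorter protein related to Domeless that is known to restrain signalling through it, and in the lymph gland it lowers pathway activity after wasp parasitism. It is the protein-coding neighbour of dome on chromosome X. Its intensity was 627, 390.1 and 391 in control and 597, 542 and 564 in Idh-R195H hemocytes. Control replicate 1 was the highest of the 6 arrays and the other controls were the lowest, so the groups overlapped. The log2 fold change was 0.31 ± 0.26 (SE, adjusted p = 0.587 in limma; 95% interval -0.34 to 0.96). It was 0.54 without control replicate 1, and 0.20 without control replicate 2 as well as without control replicate 3 (adjusted p = 0.133, 0.822 and 0.730). Against control replicate 1 alone it was -0.14, and scaling on the hybridisation controls gave 1.28 (adjusted p = 0.0125). Within arrays the log2 ratio of et over dome was 1.46, 0.10 and 0.51 in control and 1.42, 1.23 and 1.27 in Idh-R195H hemocytes. These ratios overlapped as well (difference in means 0.62, exact permutation p = 0.4). On this ratio control replicate 1 lay with the Idh-R195H arrays and apart from the other controls.

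The transcription factor gene Stat92E (CG4257, chromosome 3R), the only STAT of the fly, was at 4249, 2589.6 and 1857 in control and at 3088, 3736 and 3780.1 in Idh-R195H hemocytes. The control arrays spanned the whole range of the Idh-R195H arrays, with control replicate 1 above all of them and the other controls below. Means were 2898 ± 1225 and 3535 ± 387 (SD, n = 3 each), and the log2 fold change was 0.36 ± 0.35 (SE, adjusted p = 0.641 in limma; 95% interval -0.49 to 1.22). The control array with the highest Stat92E was the one with the lowest salivary gland sum (23211) and the highest hemocyte marker sum (178873). That array also had the lowest 3' to 5' ratio of Act5C among the controls (3.72, against 4.45 and 6.17). When each array was centred on its hemocyte markers, the log2 fold change was 0.56 ± 0.23 (SE, adjusted p = 0.280). Against control replicate 1 alone it was -0.27 (adjusted p = 0.489), and scaling on the hybridisation controls gave 1.33 (adjusted p = 0.0271), where the median over all probe sets rose to 0.86. Without control replicate 1 it was 0.68 ± 0.24 (SE, adjusted p = 0.156), and without control replicate 3 it was 0.086 ± 0.297 (SE, adjusted p = 0.898), both positive. With the deposited scaling a difference in Stat92E was therefore not detected, and among the alternatives it passed the test only after scaling on the hybridisation controls.

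**Figure D2:**
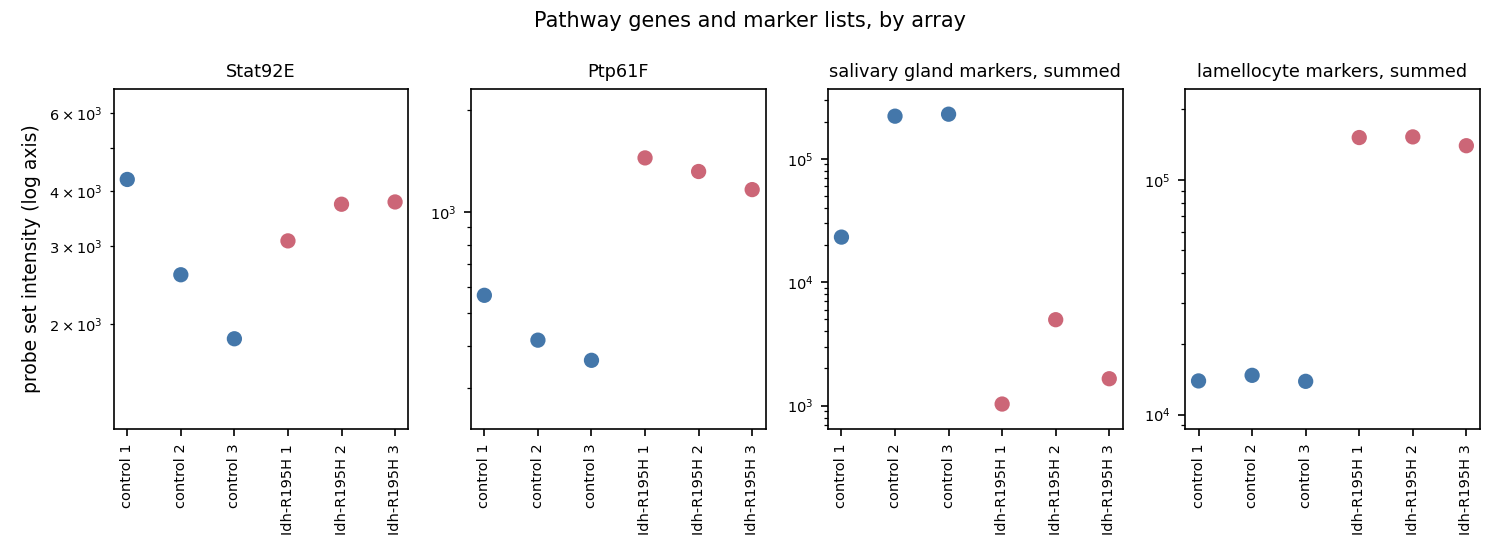
Probe set intensity of Stat92E and Ptp61F and the summed intensity of salivary gland and lamellocyte markers on each of the 6 arrays (log axes, control in blue, Idh-R195H in red). Control replicate 1 has the highest Stat92E (4249) and the lowest salivary gland sum of the controls (23211), whereas lamellocyte marker sums lie between 13847 and 14686 on all controls.

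Ptp61F (CG9181, chromosome 3L) encodes a phosphatase related to human PTP1B that is known to dampen the pathway by acting on Hopscotch and Stat92E. Its brighter probe set was at 566, 417 and 363 in control and at 1444, 1316 and 1163 in Idh-R195H hemocytes. Every Idh-R195H array was more than 2-fold above every control array. Means were 448 ± 105 and 1308 ± 141 (SD, n = 3 each), a log2 fold change of 1.56 ± 0.25 (SE) or a 2.95-fold rise, with a 95% interval of 1.93 to 4.52 and an adjusted p of 0.0370 in limma. The call held without control replicate 1 (adjusted p = 0.0292). Leaving out control replicate 2 or 3 ended it (0.129 or 0.0742), as did leaving out Idh-R195H replicate 1, 2 or 3 (0.157, 0.160 or 0.111), and the log2 fold change stayed between 1.42 and 1.74. It was also lost after quantile normalization (1.61, adjusted p = 0.0570) and after centring on array medians (1.82, adjusted p = 0.0624). It held when arrays were centred on the hemocyte markers (1.76, adjusted p = 0.0244).

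The other probe set of Ptp61F did not pass the test. It was at 258, 311 and 444 in control and at 549.7, 493 and 450.5 in Idh-R195H hemocytes, again with no overlap, but Idh-R195H replicate 3 was only just above control replicate 3. The log2 fold change was 0.59 ± 0.27 (SE, adjusted p = 0.295 in limma). Across the controls the probe sets ran in opposite orders: the array with the least salivary gland signal had the highest value of the brighter set and the lowest of the dimmer set. The log2 ratio of the brighter over the dimmer set was 1.13, 0.42 and -0.29 on the control arrays and 1.39, 1.41 and 1.37 on the Idh-R195H arrays. This ratio did not overlap between groups and spread far less in Idh-R195H (SD 0.0239) than in control hemocytes (SD 0.711). The exact permutation p was 0.1, again the smallest possible, and 0.15 after adjustment over the 6 ratios. The 3' to 5' ratio of Act5C rose from control replicate 1 to 2 to 3 (3.72, 4.45 and 6.17), as the probe set ratio fell. It was 2.13 to 2.39 on the Idh-R195H arrays. The part of RNA completeness in the probe set ratio was not tested. Ptp61F is known to make several protein forms that differ in their last exons and in their place in the cell, and which forms each probe set reads is not given in the annotation used here.

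The gene chinmo (CG31666, chromosome 2L) encodes a BTB zinc finger protein that is known as a mediator of Stat92E signalling in the eye, the testis stem cells and blood cells. Its brightest probe set was at 765, 707 and 593 in control and at 1135, 1211 and 1271 in Idh-R195H hemocytes. All Idh-R195H arrays lay above all controls. Means were 688 ± 87.1 and 1206 ± 68.4 (SD, n = 3 each), and the log2 fold change was 0.81 ± 0.20 (SE; 1.76-fold, 95% interval 1.24 to 2.49). The adjusted p of 0.107 in limma missed the threshold. The second probe set gave a like value of 1.00 ± 0.25 (SE, adjusted p = 0.110), from 696, 507 and 438 to 1018, 1219.6 and 998, also with no overlap. The dimmest set was at 50.9, 8.17 and 4.45 in control and 29.3, 45.7 and 48.6 in Idh-R195H hemocytes, all below the array medians, and its groups overlapped.

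Whether chinmo passed depended on the test. It passed when probe sets with a mean intensity under 100 were left out (adjusted p = 0.0290), with an intensity trend and a robust prior (0.0317) and after scaling on the hybridisation controls (0.00571). It did not pass under the other alternatives, and the log2 fold change of this probe set was positive under all of them, between 0.65 and 1.78. Relative to Stat92E within the same array, chinmo was at log2 ratios of -2.47, -1.87 and -1.64 in control and of -1.44, -1.62 and -1.57 in Idh-R195H hemocytes. The groups did not overlap (difference in means 0.45), though control replicate 3 lay next to the Idh-R195H arrays. The exact permutation p was 0.1, which any ratio without overlap gives here, and 0.15 after adjustment over the 6 ratios. For Ptp61F over Stat92E the ratios were -2.91, -2.63 and -2.35 in control and -1.10, -1.50 and -1.70 in Idh-R195H hemocytes. The difference in means was 1.20, with the same exact permutation p of 0.1 (0.15 adjusted), and the groups did not overlap for this brighter probe set. With the dimmer probe set of Ptp61F the ratios to Stat92E were -4.04, -3.05 and -2.06 in control and -2.49, -2.92 and -3.07 in Idh-R195H hemocytes. These overlapped, with control replicate 3 the highest of all arrays (difference in means 0.23, exact permutation p = 0.8).

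**Figure D3:**
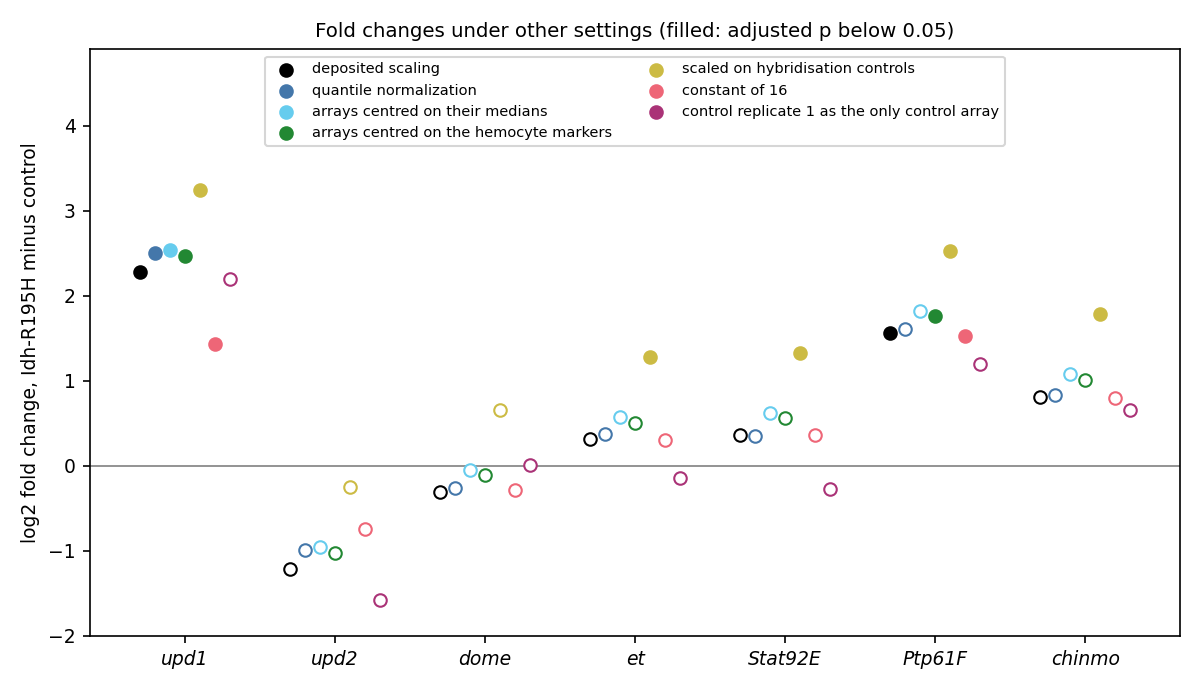
Log2 fold change (Idh-R195H minus control) of the 7 genes with the deposited scaling and 6 other settings, filled where the adjusted p is below 0.05. For upd1, upd2, Ptp61F and chinmo the sign is the same in all settings drawn, for dome, et and Stat92E it turns in at least 1, and scaling on the hybridisation controls moves every gene upward.

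**Figure D4:**
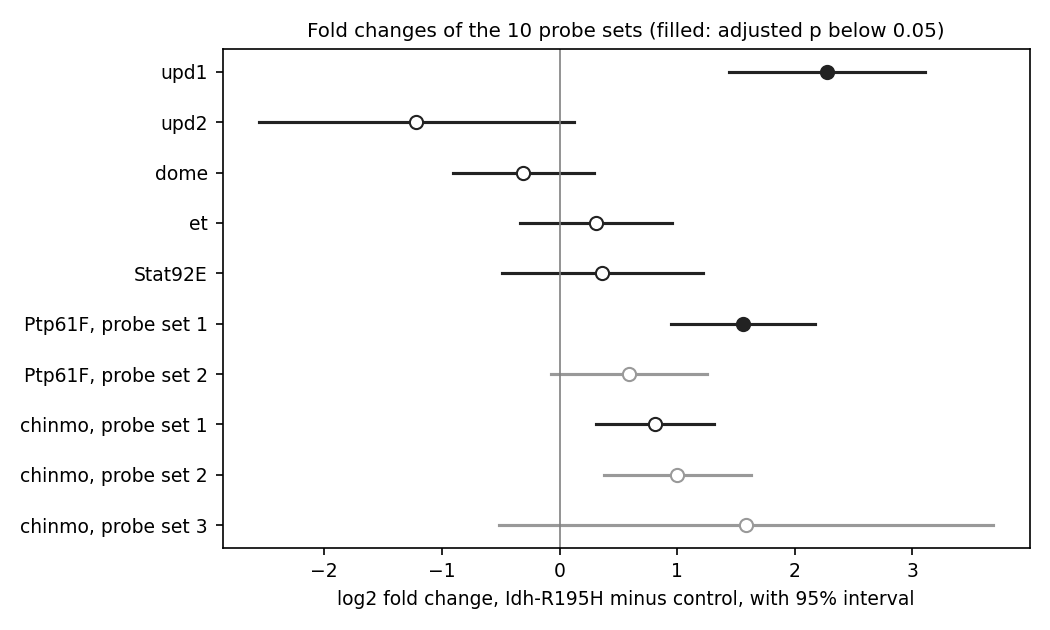
Log2 fold change (Idh-R195H minus control) of the 10 probe sets with limma's 95% interval, filled where the adjusted p is below 0.05, black for the probe set that stands for its gene and grey for its other probe sets. The filled points are upd1 at 2.27 and the brighter Ptp61F probe set at 1.56, and the intervals of both bright chinmo probe sets lie above 0.

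Beyond the listed genes, 14 further regulators of the pathway were examined, of which 13 were measured. None of the 13 passed the test, against 3.11% of all probe sets tested, so with 13 genes this count says little. Of the 13, 10 had a positive and 3 a negative log2 fold change, and the median was 0.35. An unadjusted p below 0.05 in limma was found for 2, against 20.2% of all probe sets tested. The groups did not overlap for 5, against 28.8% of all probe sets tested. The largest values were 0.87 ± 0.29 for Cdk4, a Cyclin D partner kinase known to bind Stat92E, and 0.78 ± 0.27 for apt, a transcription factor that limits the pathway in the ovary's border cells (SE, adjusted p = 0.177 and 0.194). The intensity of apt was 201, 291 and 364 in control and 468, 480.1 and 480.4 in Idh-R195H hemocytes, with no overlap. The ankyrin repeat gene mask was at 0.77 ± 0.47 and the endosomal sorting gene Stam at 0.52 ± 0.32 (SE). The feedback inhibitor genes Socs44A and Socs16D, relatives of Socs36E, were at -0.11 ± 0.22 and -0.03 ± 0.21 (SE).

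Of 13 genes known as targets in some tissue, 8 were measured. None of the 8 passed the test, against 3.11% of all probe sets tested, so with 8 genes this count says little. Of the 8, 6 were positive and 2 negative, and the median was 1.05. The groups did not overlap for 1 gene, against 28.8% of all probe sets tested. The same gene alone had an unadjusted p below 0.05 in limma, against 20.2% of all probe sets tested. That gene was zfh1, a transcription factor of blood and muscle precursors, at 4005, 2214 and 1320.3 in control and 9547, 8709 and 8190.2 in Idh-R195H hemocytes. Its groups did not overlap, and the log2 fold change was 1.95 ± 0.43 (SE, adjusted p = 0.0787). The virus-induced gene vir-1 was at 7961, 981 and 1003.5 in control and 6318, 7302 and 6665 in Idh-R195H hemocytes. Its control replicate 1 was above all Idh-R195H arrays and its other controls far below them (log2 fold change 1.76 ± 0.85, SE, adjusted p = 0.320); control replicate 1 was likewise the highest array for Stat92E and et.

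The stress peptide genes TotB and TotC, which the fat body secretes, were high on some Idh-R195H arrays only. TotC was at 9.12, 54.8 and 35.4 in control and at 32.4, 375 and 646 in Idh-R195H hemocytes, and TotB at 3.20, 3.04 and 2.53 and at 2.13, 96.6 and 172. Idh-R195H replicate 1 lay within the control range of TotC and below all controls for TotB, while replicates 2 and 3 were above all controls for both. The log2 fold changes were 2.88 ± 1.26 and 3.26 ± 1.51 (SE, adjusted p = 0.280 and 0.302 in limma). Fat body marker sums had the same order over these arrays (6458, 19310 and 56112 on replicates 1, 2 and 3), and these sums were 44549.9 to 123219 on the control arrays. The part of fat body RNA in the TotB and TotC values was not tested.

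**Figure D5:**
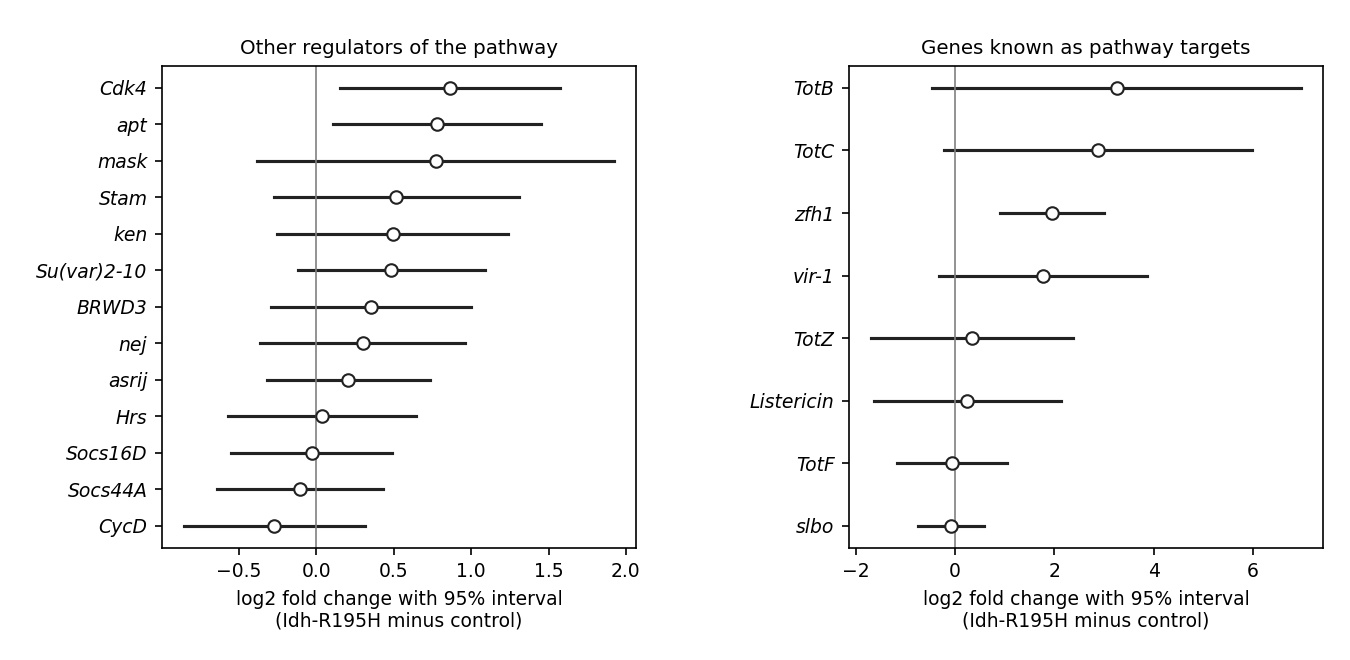
Log2 fold change (Idh-R195H minus control) with limma's 95% interval for 13 further regulators (left) and 8 known targets (right); a filled point would mark an adjusted p below 0.05. No point is filled, and the widest intervals are those of TotB and TotC, whose Idh-R195H arrays differed among themselves.

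By a set rule, the 3 genes with a mean intensity of at least 100 whose log2 values ran most nearly parallel to those of each called gene over the 6 arrays were listed. For Ptp61F these were p38a, a stress-activated kinase, grp, the checkpoint kinase Chk1, and Snx21, a sorting nexin, with Pearson correlations of 0.998, 0.997 and 0.997. Their log2 fold changes were 1.36, 0.63 and 1.80 (adjusted p = 0.0390, 0.152 and 0.0294). For upd1 they were Br140, sun and MYPT-75D at 0.995, 0.992 and 0.990, with log2 fold changes of 0.20, 0.39 and 1.85 (adjusted p = 0.610, 0.323 and 0.0211). With 7946 candidate genes and 6 arrays that share a genotype difference, such correlations describe these arrays only.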

How the data were processed

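Hemocyte RNA from 3 control and 3 Idh-R195H samples was measured on biotin-labelled 1-colour arrays. The authors deposited 1 linear intensity for each probe set and array. Without the brightest and dimmest 2% of values, all arrays averaged 500.0, so they were scaled before deposit. Per the submitters' processing notes the software was Partek 6.0, whose role is not stated; the summarisation method is not given in the sources used here. The labels call the samples biological replicates.

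Of 18952 probe sets, 183 array controls were left out and 18769 tested. Symbols came from the platform annotation, updated by gene identifier through a RefSeq table (Release 6, names, chromosomes and gene order only); 13647 tested probe sets had 1 symbol, 402 several and 4720 none. The groups were compared by limma 3.58.1 (R 4.3.3) on log2(value + 1), two-sided, with Benjamini-Hochberg adjustment over the 18769 probe sets and a threshold of 0.05. The steps were tested on simulated arrays. Ratios of probe sets within an array were compared by exact permutation of the 6 arrays.

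The genes, the further lists and the rules were chosen with earlier results of these data known. Named are all listed genes, the 3 genes most like each called gene, and of the 2 further pathway lists those called or among a list's 4 largest log2 fold changes; Socs44A and Socs16D, as relatives of Socs36E, the single cell type markers and the neighbours of the ligand genes were added after their values were seen. No pairing of the samples by replicate number was seen (correlations of the deviations of same-numbered arrays of 0.03, 0.02 and -0.07). With 3 arrays a group these correlations cannot exclude a pairing.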

Additional observations from a re-analysis of the deposited data

How the results depend on the processing

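The number of called probe sets was 584 with the deposited scaling, 6548 after scaling on the hybridisation controls, 1297 without dim probe sets (mean intensity under 100), 888 with a constant of 16, 1253 with an intensity trend and robust prior, 346 with control replicate 1 as the only control array, and 11 to 870 without 1 array. Of the JAK/STAT genes 2 were called with the deposited scaling, 5 after scaling on the hybridisation controls, 1 after quantile normalization and 1 after centring on array medians, 0 with control replicate 1 as the only control array (3 at an unadjusted p below 0.05 in limma), and 0 to 1 without 1 array (3 to 5 at an unadjusted p). With the replicate number as a block, limma called 0 probe sets and 0 JAK/STAT genes, with 3088 and 3 at an unadjusted p below 0.05, and not every array correlated best with its own number. The sign of dome turned after scaling on the hybridisation controls (0.66), and against control replicate 1 alone dome was at 0.0069, et at -0.14 and Stat92E at -0.27 (log2 fold changes). No other setting turned a sign. The cause of these changes was not tested. The median difference of all probe sets (log2) was -0.11 as deposited, 0.02 after quantile normalization, 0.15 after centring on medians, 0.08 after centring on the hemocyte markers and 0.86 after scaling on the hybridisation controls. Relative to that last shift upd1 was at 2.39, Ptp61F at 1.67, chinmo at 0.92, Stat92E at 0.47 and et at 0.42. On the same scale dome was at -0.20 and upd2 at -1.11. With the deposited scaling and both centrings these relative values are the same by arithmetic, because each array is shifted as a whole. They are therefore no separate check. Centring on the hemocyte markers and using 1 control array were chosen after seeing the data; with 1 control array, it is assumed to vary like the Idh-R195H arrays. Among the arrays left out in turn, control replicate 1 was the one whose absence kept the call of Idh. Signal over background was not known for any probe set, which limits statements on upd1, upd2 and other dim genes.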

Other observations

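The Unpaired genes lie together on chromosome X, with CG15059 between upd2 and upd3 and with CG6023 next to upd1. The neighbours did not share the rise of upd1 past the test. CG6023 was at intensities of 16.9, 63.7 and 89.3 in control and 10.6, 26.7 and 49.7 in Idh-R195H hemocytes, with overlapping groups (log2 fold change -0.89 ± 0.80, SE, adjusted p = 0.613 in limma). CG15059 was at 6.59, 71.9 and 156 in control and 68.4, 50.4 and 39.8 in Idh-R195H hemocytes, and its groups overlapped too. CG33639, the protein-coding gene on the other side of upd2, was at 77.8, 41.9 and 81.2 in control and 26.0, 28.0 and 37.0 in Idh-R195H hemocytes, with no overlap; its log2 fold change was -1.07 ± 0.33 (SE, adjusted p = 0.156), the sign of upd2. All of these probe sets were dim.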
